A study of Mus musculus with 2 samples.

Results

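The complement components and receptors described here are 9 mouse genes: Cfb, C3, C1qa, C1qb, C1qc, Cfp, Serping1, C3ar1 and C5ar1. They were chosen by symbol, as the genes whose transcript accession on a non-control array probe resolved to one of these names. The choice was made with earlier results of these data known. All 9 were found, on 11 probes, among 20659 named genes on the array. Expression in RAW246.1 cells, which the labels give as macrophages and which were grown in DMEM, was measured on 2 one-colour Agilent arrays by Cy3 labelling of total RNA. One array held RNA of cells treated with PBS, the mock treatment. The other held RNA of cells treated with synthetic miR-122, a microRNA of hepatocytes, with a dose of 5 μg/mL in a treatment text that both samples carry. The title of the second sample contains the words "without miR-122", while its source name and description give miR-122. Directions rest on those last 2 labels, which no complement gene checks. The cells are a line in culture given a synthetic microRNA, so the data hold neither primary alveolar macrophages nor miR-122 released by liver. With 1 array per group, the differences have no replicate check and no test between cultures was possible.

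Complement is a cascade of plasma proteins and cell-surface receptors that marks microbes and debris for uptake. C1q starts the classical pathway, mannose-binding lectins and ficolins start the lectin pathway, and the alternative pathway runs on C3, factor B, factor D and properdin. All routes cut C3, which releases the peptide C3a and deposits C3b. Cutting of C5 then releases C5a and starts the membrane attack complex. Although liver makes most plasma complement, macrophages also make C1q, C3, factor B and properdin and carry receptors for C3a and C5a.

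Cfb was the gene with the widest contrast of the 9, and C3ar1 was the other that differed by at least 2-fold. With miR-122, the Cfb level was at least 29.2-fold above that with PBS, and C3ar1, the C3a receptor gene, was 2.81-fold higher. On their brightest probes C3, Cfp, C1qb and C5ar1 differed by at most 0.15 on the log2 scale, while a dimmer C3 probe differed by 0.39. With median scaling C1qb and C5ar1 were at -0.33 and -0.28. Serping1, the C1 inhibitor gene, was 1.46-fold lower. C1qa and C1qc were not well above background on either array. Thus of the 9 genes 6 were measured on both arrays, 1 on the miR-122 array only and 2 on neither.

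Signals are the background-subtracted intensities of the scanner software, in arbitrary units. An error after a signal is the estimate of that software for 1 spot, which covers error within an array and not between cultures. Levels are log2 signals minus the 75th percentile of the array, and differences are levels on the miR-122 array minus those on the PBS array. The 75th percentile of signal was 421.2 with PBS and 347.7 with miR-122, so scaling raised each difference by about 0.28 over the unscaled one. The lowest signal counted as well above background by the software's flag was 10.8 with PBS and 11.5 with miR-122. No spot was saturated. Probes differ in how brightly they bind, so levels of different genes were not set against each other.

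**Figure D1:**
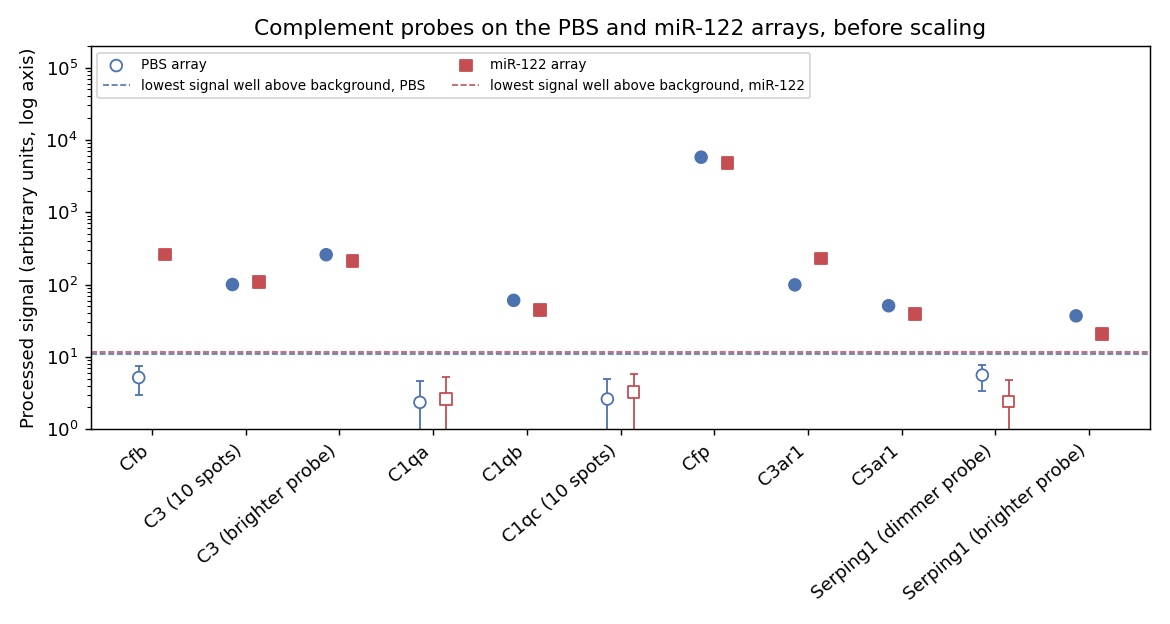
Processed signal of the 11 complement probes (arbitrary units, log axis) on the PBS array (circles) and the miR-122 array (squares), with the scanner software's error estimate as bars, some of which are smaller than their symbols or run below the axis. Open symbols are not well above background and dashed lines mark the lowest signal that was; Cfb lies at 5.175 with PBS and at 259.9 with miR-122.

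Factor B, the product of Cfb, is the protease subunit of the alternative pathway convertase. The single Cfb probe read 5.175 ± 2.22 on the PBS array, which was not well above background. On the miR-122 array it read 259.9 ± 26.1. Its level there was -0.42, against -6.35 on the PBS array and a lowest level well above background of -5.29 on that array. The bound of 29.2-fold sets the miR-122 level against that lowest level, since the PBS signal itself gives only an upper limit. Of the 457 genes seen with miR-122 alone, 24.5% had a bound of at least 2-fold. These genes, Cfb included, passed the filter only through the miR-122 array, so that share is a description and no check of Cfb. With the normexp background correction, which lifts dim signals, the Cfb bound was 5.93-fold.

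C3 is the central component that all pathways cut, and the 2 probes for its message differed little between the arrays. The probe printed 10 times read between 95.61 and 103.3 on the PBS array, with a median of 100.3. On the miR-122 array its 10 spots lay between 98.49 and 114.4, with a median of 108.6. The 2 ranges overlapped before scaling, but after scaling every miR-122 spot of this probe lay above the PBS spots. Their standard deviations over spots were 0.04 and 0.07 on the log2 scale. The difference of that probe was 0.12 before scaling and 0.39 after it, both larger than the standard deviations over spots. The brighter probe, printed once, read 258.9 ± 26.0 with PBS and 210.3 ± 21.2 with miR-122, a difference of -0.30 before scaling and -0.02 after it. The probes thus disagreed in sign by an amount of the order of the spread between probes of 1 gene, whose pooled standard deviation over the array was 0.30. C3 therefore had no settled direction.

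**Figure D2:**
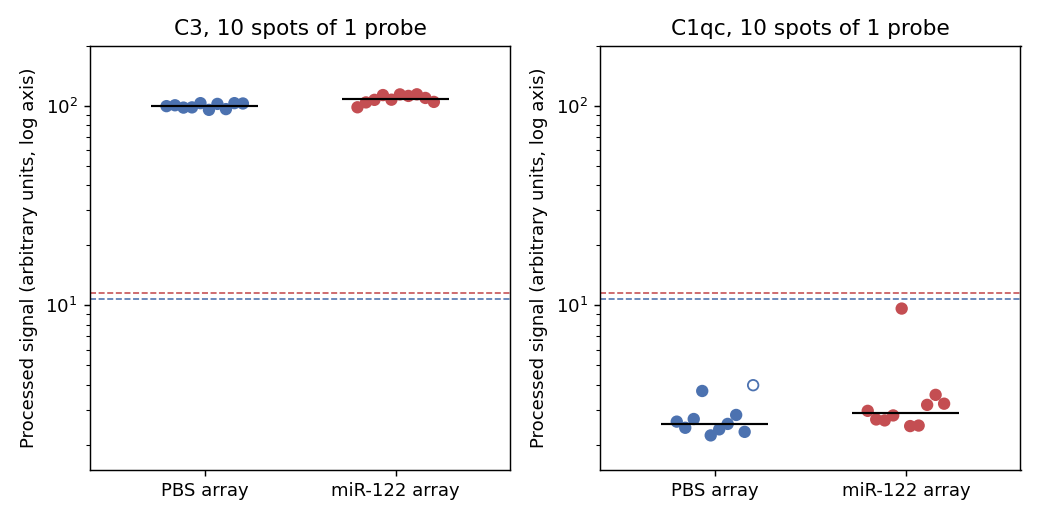
Processed signal (arbitrary units, log axis) of the 10 spots of the repeated C3 probe and of the C1qc probe on each array, with the median of unflagged spots as a black line, a flagged spot as an open circle and the lowest signal well above background of each array as dashed lines. The C3 spots lie between 95.61 and 114.4, while every C1qc spot lies below the dashed lines.

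Properdin, encoded by Cfp, stabilises the alternative pathway convertase. Its probe read 5778 ± 578 with PBS and 4847 ± 485 with miR-122. After scaling the levels were 3.78 and 3.80, a difference of 0.02, with an error of 0.20 propagated from the scanner estimates of both arrays. The sign turned negative with median scaling, at -0.15, with quantile normalization, loess and the authors' deposited values, and without scaling. A direction for Cfp was therefore not resolved.

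C1q is assembled from A, B and C chains, encoded by the neighbouring genes C1qa, C1qc and C1qb on chromosome 4. Only the B chain gene gave a signal well above background. C1qb read 60.51 ± 6.49 with PBS and 45.01 ± 5.25 with miR-122. Its scaled difference was -0.15 with a propagated scanner error of 0.23, and 0.04 with normexp. C1qa, on 1 spot per array, read 2.35 ± 2.34 with PBS and 2.622 ± 2.62 with miR-122, each as large as its own error. For C1qc, 9 unflagged spots on the PBS array read between 2.228 and 3.721. On the miR-122 array 10 spots read between 2.481 and 9.638 with a median of 2.882, and none was well above background. The upper end was 1 spot, and the other spots overlapped the PBS range. For C1qa and C1qc no fold is given, because both arrays provide only an upper limit.

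Serping1 encodes C1 inhibitor, a serpin that blocks the proteases C1r and C1s and also acts on kallikrein and factor XII. Its brighter probe read 36.94 ± 4.36 with PBS and 20.84 ± 3.31 with miR-122. The scaled difference was -0.55 with a propagated scanner error of 0.29, and 93.3% of the 15022 genes measured on both arrays had a larger, that is more positive, difference. With normexp it was -0.091. The second probe of Serping1, at 5.596 with PBS and 2.423 with miR-122, was not well above background on either. Serping1 was the 1 gene of the 6 measured on both arrays whose difference was negative by more than the 0.30 spread between probes.

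C3ar1 encodes the receptor for C3a, a G protein-coupled receptor of myeloid cells. Its probe read 99.14 ± 10.2 with PBS and 229.9 ± 23.1 with miR-122, so the signal was 2.32-fold higher before scaling. The levels were -2.09 and -0.60, a difference of 1.49 with a propagated scanner error of 0.21. That difference exceeded both the scanner error and the 0.30 spread between probes of a gene, and it was at least 2-fold under every scaling and background correction run, from 1.07 with normexp to 1.49. Larger differences were seen for 1.89% of the genes measured on both arrays. In the tenth of genes with a mean level like that of C3ar1, 4.39% were higher by 2-fold or more and 3.73% lower.

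C5ar1 encodes the C5a receptor that drives chemotaxis of neutrophils and macrophages. It read 50.98 ± 5.62 with PBS and 39.04 ± 4.71 with miR-122. The scaled difference was -0.11 with a propagated scanner error of 0.24, and its sign turned with normexp, at 0.07. The neighbouring gene C5ar2, for a second C5a receptor that does not couple to G proteins, had a difference of 0.32 on its brighter probe and 0.02 on the other. The difference between C3ar1 and C5ar1 was not tested, since each array is a single sample.

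Bases upstream of the RefSeq gene starts of C3ar1 and C3 are shown because C3ar1 is the gene that was measured on both arrays and past 2-fold, and C3 encodes the precursor of its ligand. The table of promoters held 6 of the 9 genes, C3, C3ar1, C5ar1, C1qb, C1qc and Cfp. Each sequence covers the 250 bases before the start in GRCm38.p6, on the minus strand, at chr6:122856158-122856407 for C3ar1 and chr17:57228137-57228386 for C3. Capitals mark matches to the outline of an NF-kB site, GGG and CC with any 5 bases between, on either strand.
C3ar1: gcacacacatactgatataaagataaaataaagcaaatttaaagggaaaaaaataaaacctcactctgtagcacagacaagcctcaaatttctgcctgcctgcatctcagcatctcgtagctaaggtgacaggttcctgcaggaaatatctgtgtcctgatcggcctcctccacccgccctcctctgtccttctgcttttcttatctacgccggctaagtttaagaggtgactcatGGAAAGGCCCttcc
C3: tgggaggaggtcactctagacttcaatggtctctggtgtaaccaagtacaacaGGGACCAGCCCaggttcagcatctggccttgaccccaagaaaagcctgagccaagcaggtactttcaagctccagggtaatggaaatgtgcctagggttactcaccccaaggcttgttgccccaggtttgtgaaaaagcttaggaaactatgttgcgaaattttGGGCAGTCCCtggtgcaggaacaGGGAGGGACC

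That loose outline occurred in 5 of the 6 promoters and in 50.8% of all 32851 promoters of the table, counted in windows from 250 bases before to 50 after the start. Counted from the start, with -1 as the base before it, the match in C3ar1 began at -14. Those in C3 began at -10, -33, -196 and -197, the last 2 overlapping. The core of the interferon-stimulated response element (GAAA, any 2 bases, GAAA) occurred in 3.44% of all promoters and in 0 of the 6. The outline of a STAT site, TTCNNNGAA, occurred in 8.30% and also in 0 of the 6. These are descriptions of letters in short windows, and binding was not measured.

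Set against the array as a whole, 1 of the 6 genes measured on both arrays was higher with miR-122 by 2-fold or more, as were 4.57% of 15022 genes. Of the 6, 0 were lower by as much, against 1.78% of all genes. Since the genes were chosen with earlier results of these data known, these shares are descriptions only. The median difference over all 15022 genes was 0.09. Of all genes past 2-fold, 71.9% were higher, a share that was 59.9% with quantile normalization, 50.8% with median scaling and 40.5% without scaling.

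**Figure D3:**
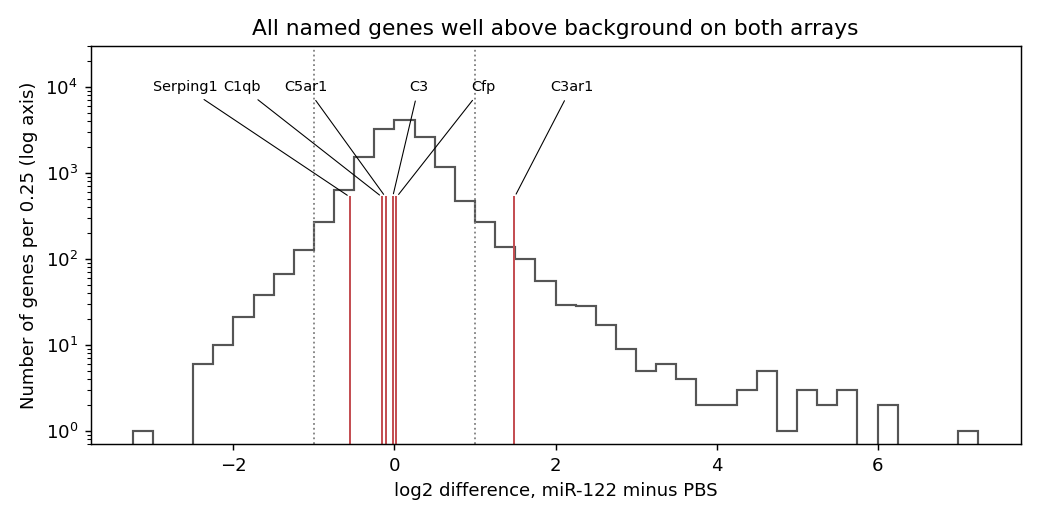
Distribution of the log2 difference, miR-122 minus PBS, over 15022 genes measured on both arrays (number of genes on a log axis), with red lines at the 6 complement genes and dotted lines at 2-fold. C3ar1 lies at 1.49, past the dotted line, and the other genes lie between -0.55 and 0.02.

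In addition, 46 genes of the complement system on a list of components, regulators and receptors were examined in the same way. That list was also chosen with earlier results of these data known. Among them 28 were measured on both arrays, 4 on the PBS array only, and 12 on neither, while 2, C4a and Cfhr3, had no matched probe. Of the 28, 16 had positive and 12 negative differences, where 60.3% of all genes were positive. Their median was 0.08, beside 0.09 for all genes. The list's median moved with that of all genes where scaling shifts every gene alike, to -0.09 beside -0.08 with median scaling and to -0.19 beside -0.18 without scaling. It was -0.12 beside -0.03 with quantile normalization, -0.13 beside 0.0025 with loess and 0.16 beside 0.11 with normexp. At least 2-fold higher were 2, C1ra and C1rb, beside 4.57% of all genes, and with normexp neither was past 2-fold. Lower by at least 2-fold were 0 of the 28, beside 1.78% of all genes.

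In the classical pathway, the genes higher on the miR-122 array were those of the C1r protease and of C2. C1ra read 157.7 ± 15.9 with PBS and 299.3 ± 30.0 with miR-122, 2.30-fold higher after scaling, or a difference of 0.94 with normexp. Its dimmer probe differed by 0.81. C1rb, a close relative of C1ra whose transcripts a probe may share, was near the background limit on the PBS array at 13.04 ± 2.62 and read 32.21 ± 4.08 on the miR-122 array. That is 2.99-fold higher, or a difference of 0.54 with normexp. In the tenth of genes with a mean level like that of C1rb, the median difference was 0.23 and 4.79% were higher by 2-fold or more. C2, the classical pathway counterpart of factor B and its neighbour on chromosome 17, read 37.48 ± 4.48 and 49.34 ± 5.63, a difference of 0.67. C4b, whose near-copy C4a could share its probe, differed by -0.11. The C1s genes C1s1 and C1s2, for the protease that C1r activates, were not well above background on either array.

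**Figure D4:**
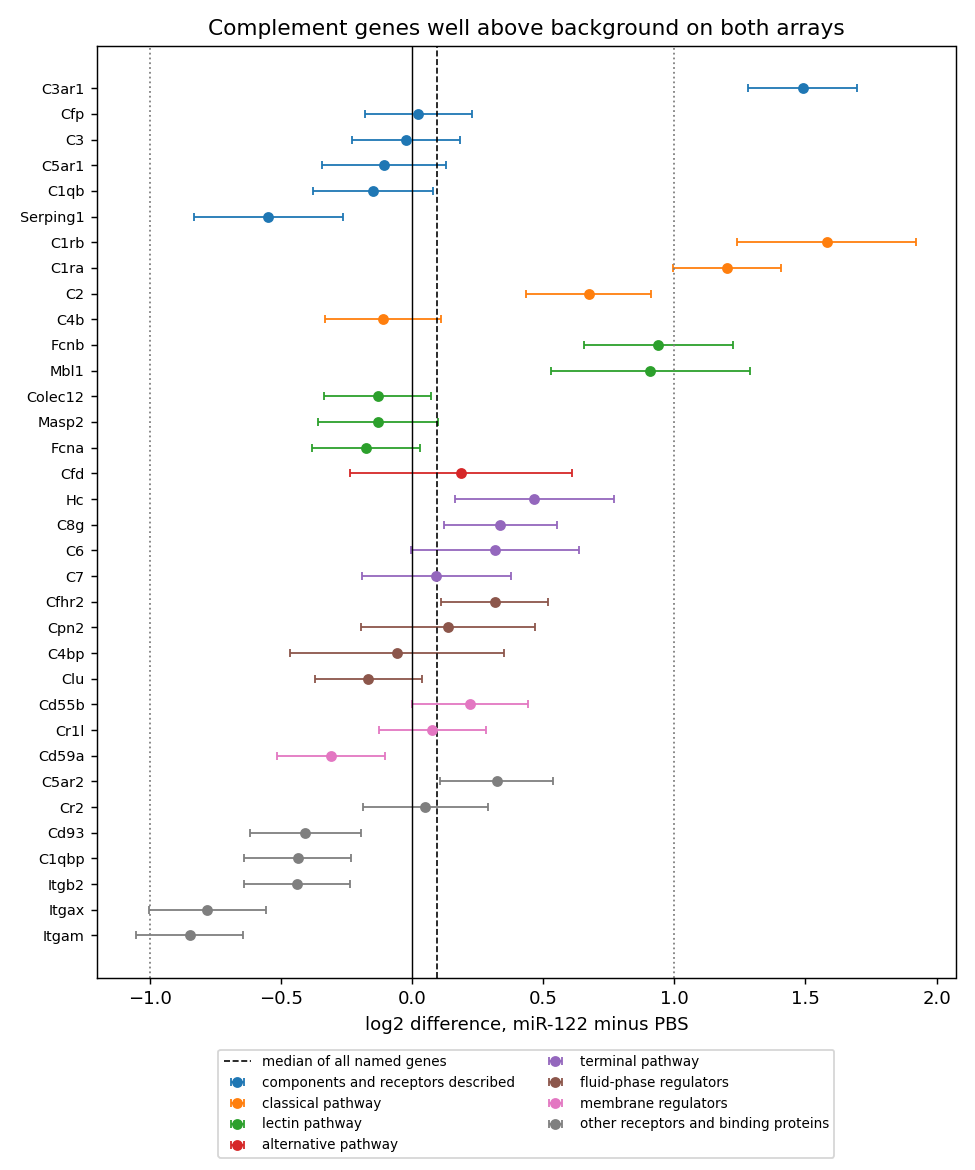
Log2 difference, miR-122 minus PBS, of the 34 complement genes reported here and measured on both arrays, grouped by role, with the propagated scanner error as bars, the median of all genes as a dashed line and 2-fold as dotted lines. C3ar1, C1rb and C1ra lie past 2-fold on the right, and Itgam lies farthest to the left, at -0.85.

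Lectin pathway genes were mostly dim or near 0. Fcnb, a ficolin gene, and Mbl1, for a mannose-binding lectin, had differences of 0.94 and 0.91, just under 2-fold, from PBS signals of 23.22 ± 3.52 and 13.21 ± 2.73. With normexp they were 0.48 and 0.30. Fcna, the brightest Masp2 probe and the scavenger collectin gene Colec12 lay between -0.18 and -0.13. A dimmer Masp2 probe differed by 0.12, and another, well above background with PBS alone, by -0.26. Mbl2, Masp1, C8a and the receptor gene Vsig4 passed the background flag with PBS alone. None of these 4 genes had a bound of 2-fold, while 3.92% of the 739 genes seen with PBS alone did. Colec10 and Colec11 were not well above background. Cfd, for the protease that activates factor B, had signals of 14.11 ± 2.73 and 13.24 ± 2.93, with a difference of 0.18 and an error of 0.42.

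Genes of the terminal pathway, whose products build the membrane attack complex, had differences from 0.09 to 0.47 over the 4 measured on both arrays. They were Hc, which encodes C5, C6, C7 and C8g, and the sign of C7 turned with median scaling. Hc, C6 and C7 were dim, and the 1502 genes with mean levels from -4.25 to -3.55, where they lie, had a median difference of 0.23. C8b and C9 were not well above background.

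The fluid-phase regulators examined differed by less than 2-fold. The 2 probes of Cfhr2 disagreed, at 0.31 and -0.39. Clu, C4bp and Cpn2, for clusterin, a C4b-binding protein and a carboxypeptidase subunit that acts on anaphylatoxins, differed by -0.17, -0.06 and 0.14. Cfi, Vtn and Cpn1 were not well above background.

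Membrane regulators, which protect host cells from deposited complement, differed by less than 2-fold. Cr1l, which encodes the rodent regulator Crry, read 5662 ± 566 and 4930 ± 493, a difference of 0.08 whose sign turned with median scaling, at -0.10. Cd59a, which blocks the membrane attack complex, differed by -0.31, and Cd55b, of the decay-accelerating factor pair, by 0.22. Cd55, Cd46 and Cd59b were not well above background.

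Among the other receptors and binding proteins, the chains of the complement receptors for iC3b were lower on the miR-122 array by less than 2-fold. Itgb2, the shared beta chain, differed by -0.44 and Itgax, the alpha chain of CR4, by -0.78. With normexp they were -0.47 and -0.31. Itgam, the alpha chain of CR3, differed by -0.85 on its brightest probe, which read 5555 ± 555 and 2544 ± 254, but by -0.12 and 0.36 on the other probes. With median scaling its brightest probe was at -1.03, past 2-fold. C1qbp and Cd93, for proteins first described as binding C1q, differed by -0.44 and -0.41. Cr2, a receptor of B cells for C3 fragments, differed by 0.05.

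**Figure D5:**
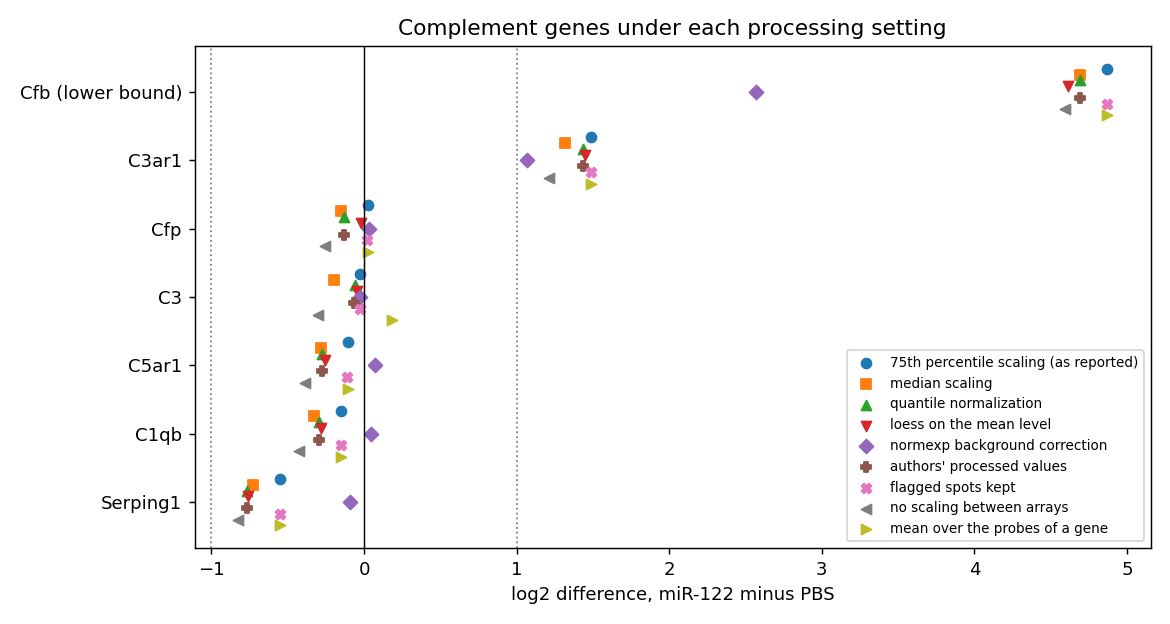
Log2 difference, miR-122 minus PBS, of the complement genes under each processing setting (a symbol per setting; for Cfb the lower bound), with dotted lines at 2-fold. C3ar1 stays right of the 2-fold line in every setting, from 1.07 to 1.49, and the Cfb bound runs from 2.57 with normexp to 4.87.

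All 9 macrophage markers with a matched probe were well above background on both arrays, with a median difference of -0.25 after scaling. Their summed signal before scaling was 80797 with PBS and 50778 with miR-122, and its brightest gene, Csf1r, had a scaled difference of -0.78. Ptprc, Spi1 and Fcer1g had positive differences, of 0.45, 0.58 and 0.49, and the other 6 had negative ones. Cd68 had no matched probe. Of 10 hepatocyte markers, listed because liver is the main source of complement, 8 were well above background with PBS and 7 with miR-122, with summed signals of 361 and 356, and Alb and Apoa1 were so on neither. Lists for neutrophils, B cells, T cells, fibroblasts, epithelium, endothelium and dendritic cells had median differences between 0.10 and 0.51. Before scaling, their summed signals were within 1.5 times of each other on the arrays. Scaling raises every sum with miR-122 against that with PBS by about 0.28 on the log2 scale, the macrophage sum included. The range of 1.5 times therefore holds for unscaled sums only. In the dendritic list Siglech was brightest, at levels of 6.20 and 6.25, while Zbtb46 went from -4.01 with PBS to -0.92 with miR-122, a difference of 3.09 and the widest among the markers measured on both arrays. Lck, of the T cell list, differed by 1.02. The part of other cells in the complement differences was not tested, and in bulk RNA fewer cells of a type and less RNA per cell cannot be told apart. The reference genes Actb, Gapdh and Hprt differed by 0.21, 0.18 and -0.25. Both arrays lay on 1 slide, and treatment cannot be told apart from the position on it.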

How the data were processed

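RNA of 1 PBS and 1 miR-122 culture was measured on 1 array each, with groups taken from the source names. The deposited scanner files hold intensities of spots with error estimates, and both came from Agilent Feature Extraction, whose version was 11.0.1.1, per the file headers. The deposited series matrix holds log2 values processed by the authors, by steps that are not given in the sources used here. The columns share a median of 5.16, and each correlated at 0.997 with log2 scanner signals of its own array. Differences from the authors' values were nearly those of quantile normalization, 1.4319 and 1.4321 for C3ar1.

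Control spots (1377) and flagged spots (145 with PBS and 196 with miR-122) were left out. Each probe took the mean log2 signal of its spots, from which the 75th percentile of its array was subtracted. A probe counted as well above background when the software flagged at least 50% of its spots so. Over 281 probes printed 10 times, the median standard deviation of spots was 0.05 and 0.06.

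Accessions were matched without versions to RefSeq genes of GRCm38.p6, used for names, neighbours and promoters only. In all, 27234 probes matched. A gene took its brightest probe well above background on at least 1 array. No test was run with 1 array per group, and genes were counted at 2-fold. Members and lists were chosen with earlier results of these data known. The rule for names took the 9 members, listed complement genes well above background on at least 1 array, reference genes and markers. Listed genes below background or with no matched probe are named in addition, to account for the list. Some complement genes are not reported here, and counts over the list leave them out. A planned comparison of protein sequences was not run. Counting at 2-fold was tested on simulated data, with noise like that between repeated spots and none between cultures or probes of a gene. That test checks the counting step and cannot show how often unchanged genes pass 2-fold here. Tools were R 4.3.3, limma 3.58.1, Python 3.11.15 and pandas 2.3.3. The alternatives run were other scalings, normexp with an offset of 50 on median spot intensities, loess with a span of 0.3, the authors' values, flagged spots kept, the mean over probes, other thresholds and other filters on dim probes.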

Additional observations from a re-analysis of the deposited data

How the results depend on the processing

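Over 12 other settings, 115 of 138 values stayed within the 0.30 spread between probes of a gene, or within 1.5 times for a count or share. None that was past 2-fold reversed, but of the log2 values only C3ar1 and the Cfb bound were past it. Smaller values whose sign turned, such as those of Cfp, C1qb and C5ar1, counted as staying within the spread. Quantile normalization and the authors' values, both counted there, gave nearly the same values and are not separate checks. Nor could the mean over probes move a gene with 1 probe. With normexp, C3ar1 was 1.07, Serping1 -0.091 and the Cfb bound 2.57 on the log2 scale. Past 2-fold were then 0 listed genes higher and 0 lower, and 2.59% of all genes higher and 0.953% lower. With median scaling, 1 listed gene (Itgam) and 3.04% of all genes were lower. Without scaling, an alternative chosen after seeing the data, 1 listed gene was higher and 2 lower, Itgam and Itgax, and 2.62% of all genes were higher and 3.85% lower. At 1.5-fold, 5 listed genes were higher and 2 lower, with 12.1% and 5.99% of all genes. At 4-fold, 0 of the 6 genes measured on both arrays were higher, the list had 0 higher and 0 lower, and the shares of all genes were 0.812% and 0.113%. Admitting genes well above background on at least 1 array, which C1qa and C1qc were not, gave 2 of the 9 genes higher. The share over the 16238 genes so admitted was 5.56%. Cfb was the added gene, and it passed this filter only through the miR-122 array, where it was high. Without a filter 2 of the 9 and 4 listed genes were higher, beside 6.57% of all genes. Filters and thresholds change which genes are counted by construction, while the cause of the other shifts was not tested. No paired analysis was possible because each group holds 1 array. Signal over background limits C1qa, C1qc and the PBS value of Cfb, and 1 array per group limits every difference.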
